A study of Drosophila melanogaster with 19 samples.

Results

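Dm12 is a wide-field interneuron of the distal medulla, the second neuropil of the fly's optic lobe, and its RNA was sequenced here from sorted cells of adult Drosophila melanogaster. The members are the 3 Dm12 libraries of a count table with 57 libraries. They were taken by their column names, and they are set against the 48 libraries of the other 16 single cell types, namely the medulla types Dm2, Dm8, Mi1, Tm2, Tm3, Tm9, Tm5ab and Tm5c, the T types T1, T2, T3 and T5, and the lamina feedback types C2, C3, Lawf1 and Lawf2. A further 3 libraries of sorted neurons are given as a background, and 3 libraries of a T1 and Tm1 mixture only helped to estimate the spread. Each type was labelled by its own Gal4 driver line and a UAS-Red Stinger nuclear reporter, dissociated from dissected brains of flies 3 to 6 days old, and collected by fluorescence-activated sorting. All groups share that transgene design. The driver of each type is not given in the sources used here, so a type is what its line labels. Every type is 1 deposited sample with 3 libraries, and nothing says whether these came from separate flies or sorts, so p-values measure the spread between libraries, which may be technical.

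Medulla neurons acquire their identity through combinations of transcription factors, many of them homeodomain proteins, which then set the transmitter, the receptors and the surface proteins that a neuron uses. Dm12 arborises across several columns in a middle medulla layer, where it meets the lamina neuron L3, and its surface protein DIP-alpha is known to bind dpr6 and dpr10 on such partners. Glutamate acts in the fly brain through excitatory channels and through the chloride channel GluClalpha, so that a glutamatergic neuron can inhibit its targets.

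The Dm12 libraries held 22.2 to 23.2 M reads in genes, against 0.602 to 31.0 M in the other types, and between 9906 and 10796 genes had a read in a Dm12 library. Pairwise correlations of log2 levels between the Dm12 libraries were 0.988 for libraries 1 and 2, 0.988 for 1 and 3, and 0.995 for 2 and 3. Their counts differed by more than sampling noise, with a chi-square per degree of freedom of 12.4 or more, so they were kept as separate libraries. Levels are CPM, the reads of a gene for each M reads in genes of its library, after edgeR's TMM scaling, and ± is the SD over 3 libraries unless it is named as a standard error (SE). They are not divided by gene length, so levels are compared between groups and not between genes. A gene was called when edgeR's quasi-likelihood test gave a Benjamini-Hochberg adjusted p under 0.05 and a log2 fold change of at least 1 in size. The fold change sets Dm12 against the mean of the other types' log2 levels, so a gene that is high in few other types can be called higher although those few exceed Dm12. Where other types had 0 reads, that fold depends on the fit's prior count, and the ratio of the Dm12 level to that of the next type is given in its place.

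Dm12 was set apart by genes that were low or unread in most other types. Among them were the LIM homeodomain genes CG4328 and Lmx1a, the homeobox gene pros, the peptide precursor Nplp1, the peptide receptor Dh44-R1 and the adhesion gene DIP-alpha. The genes furthest below the other types held the octopamine receptor genes Octbeta2R and Octbeta3R and the neuroligin gene Nlg3. Of 12569 genes tested, 1337 (10.6%) were called higher in Dm12 and 656 (5.22%) lower, and the median log2 fold change over all tested genes was -0.06. DESeq2 on the same genes split its calls differently, with 974 higher and 1115 lower. Among the genes called higher, 532 had at least 20 CPM in Dm12 and 277 had less than 1 CPM. All 3 Dm12 libraries lay above all 48 others for 140 genes (1.11% of those tested), of which 133 were called higher, and below all 48 for 38 genes (0.302%), of which 34 were called lower. When each type counted as 1 unit, so that the spread between types set the error, 5 of 14229 genes (0.0351%) were called higher and 0 lower, with 282 at an unadjusted p under 0.05 of which 111 were lower, and 3 of the 5 were among the 1337. A level is an average over sorted cells, so fewer cells with a transcript and less of it per cell cannot be told apart. In the fit by type the direction turned for hbn, beat-Ib, KCNQ, 5-HT2A, Vmat and DIP-gamma. The adjusted p in that fit was 0.0145 for Lmx1a and 0.0833 for CG4328.

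Among transcription factor genes, CG4328 and Lmx1a were read almost only in Dm12, and pros was far above its level in any other type. CG4328 (FBgn0036274, chromosome 3L, 12290956 to 12296123, minus strand; coordinates are on BDGP6), a LIM homeodomain gene, read 659, 768 and 779 CPM in the Dm12 libraries. The other types read at most 5.32 ± 3.40 CPM, in Tm3, 9 of the 16 had no read in any library, and sorted neurons read 11.3 ± 0.734. Every Dm12 library was therefore far above every other library, 138 times the next type (adjusted p = 1.08e-22). Lmx1a (FBgn0052105, chromosome 3L, 12329232 to 12335901, plus strand), a LIM homeodomain gene beside CG4328 on the same arm, read 349.5, 382 and 383 CPM in Dm12. Its highest level elsewhere was 2.31 ± 1.20 CPM in Tm3, 8 types had no read, and the Dm12 level was 161 times that of Tm3 (adjusted p = 1.51e-26). Of the 6 LIM homeodomain genes tested 2 were higher (33.3%, beside 10.6% of all genes), with a median log2 fold change of -3.71. The other 4 were not called against the 16 types by edgeR, while DESeq2 called tup, named here after its values were seen, lower (log2 fold change -4.66, adjusted p = 0.0172).

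The gene tj (FBgn0000964, chromosome 2L, 19464267 to 19467758, plus strand), which encodes the large Maf factor Traffic jam, read 253, 308 and 308 CPM in Dm12. Of the other types, Dm8 alone came near, at 203 ± 18.1 CPM, Tm3 followed at 8.03, and 5 types had no read. Dm12 was called higher than the mean of the others (adjusted p = 3.9e-23), and its libraries did not overlap those of Dm8, whose highest read 222 CPM. The level of pros (FBgn0004595, chromosome 3R, 11328480 to 11407627, plus strand), known for its part in neuronal differentiation, was 11875, 9786 and 9338 CPM in Dm12. The next type, C2, read 1149.7 ± 70.4 CPM and the median type 23.3 CPM, and the log2 fold change was 7.75 ± 0.25 (SE, adjusted p = 3.76e-26). Dm12 stood 8.99 times above C2, and no library of another type passed 1227 CPM. The noncoding gene lncRNA:CR46008 lies on the opposite strand within pros and shares 9.51% of its exon bases with it. It read 92.7, 69.3 and 72.3 CPM in Dm12, against at most 10.3 ± 0.931 in C2, and reads of such overlapping genes cannot be told apart without strand.

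**Figure D1:**
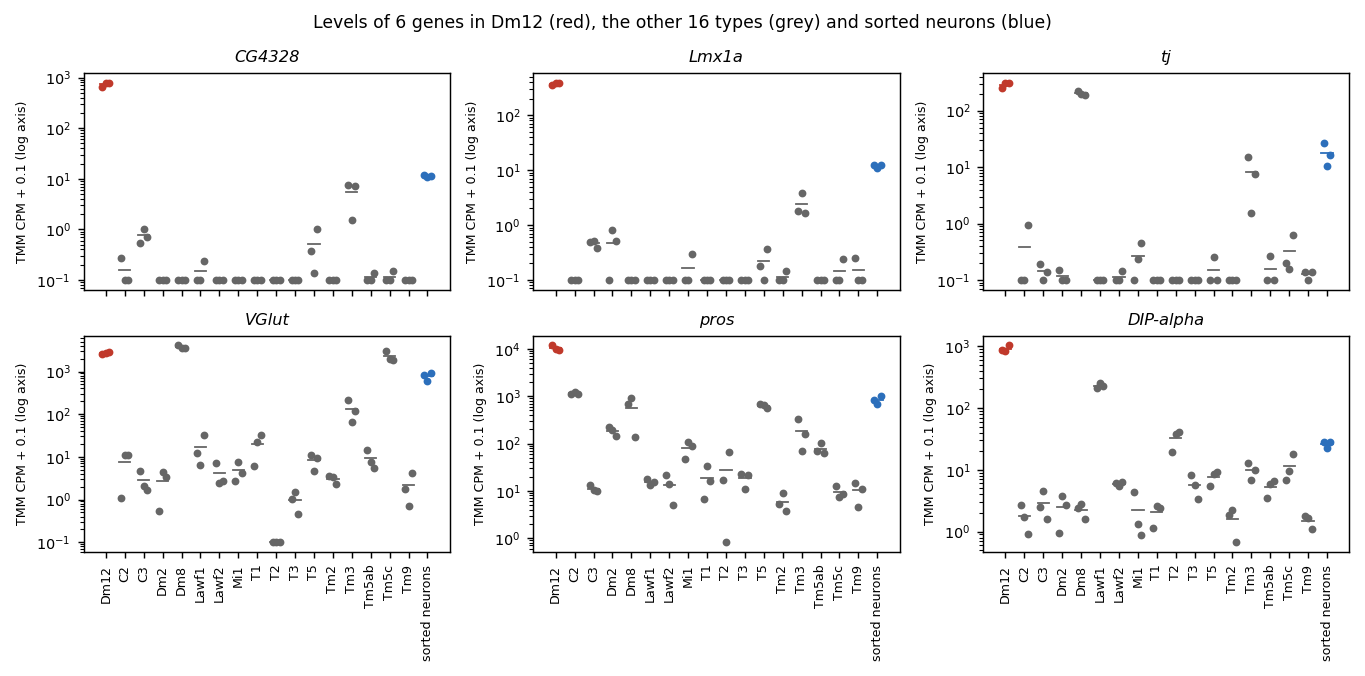
Levels of CG4328, Lmx1a, tj, VGlut, pros and DIP-alpha in each library (points, CPM after TMM scaling plus 0.1, log axis) with the group mean (short line), for Dm12 (red), the other 16 types (grey) and sorted neurons (blue). Dm12 is far above every other type for CG4328 and Lmx1a, shares tj with Dm8 and VGlut with Dm8 and Tm5c, and stands 8.99 times above the next type for pros and 3.96 times for DIP-alpha.

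Among 55 tested homeodomain genes of other classes, 10 (18.2%, beside 10.6% of all genes) were higher and 7 (12.7%, beside 5.22%) lower, with a median log2 fold change of -1.10. The gene oc, an Otx-type factor of head and eye development, read 392.2, 330.3 and 313 CPM in Dm12, against 459 ± 3.24 CPM in T1 and at most 0.528 in the remaining types. Dm12 and T1 were thus the only types with oc above 1 CPM (adjusted p of Dm12 against all others 5e-24). The level of dve, defective proventriculus, was 33.2, 34.3 and 28.5 CPM in Dm12. T2 came next at 25.5 ± 22.2 CPM with libraries that spread over and around those of Dm12 (adjusted p = 1.86e-14). The repressor gene zfh1 read 287, 342 and 343 CPM in Dm12, a level between 748 CPM in Lawf2 and 0.765 CPM in the median type, and Dm12 was the fourth of the 17 (log2 fold change 7.56 ± 0.37 SE, adjusted p = 2.51e-20). The gene hbn read 120.4, 107 and 104 CPM in Dm12 and up to 1817 ± 308 CPM in C3, where Dm12 ranked the sixth, so its call (adjusted p = 1.43e-20) reflects the low level of most types.

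On the low side, ct, which encodes the homeodomain protein Cut, read 2.16, 2.40 and 0.931 CPM in Dm12, against a median of 738 CPM and up to 3004 ± 699.8 CPM in T2 (log2 fold change -7.79 ± 0.41 SE, adjusted p = 8.36e-21). The only type with less was Dm8, at 0.746 CPM. The gene bsh, a marker of Mi1 and of lamina neurons, had no read in any Dm12 library, against 649 ± 68.3 CPM in Mi1 and 0.625 CPM in the median type, so Dm12 was at least 14.7-fold lower than the median type when 3 counts over its libraries are taken as the floor (adjusted p = 0.00748).

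Factors of other families numbered 84 tested, 11 higher (13.1%, beside 10.6%) and 13 lower (15.5%, beside 5.22%; median log2 fold change -0.83). The forkhead gene fkh read 591, 589 and 644 CPM in Dm12, below 1399 ± 165 CPM in Dm8 and 1143 CPM in T3, and far above the median type at 0.417 CPM (adjusted p = 6.83e-23). A second forkhead gene, fd59A, read 382, 424 and 417 CPM in Dm12. It read 574 ± 15.7 CPM in Dm8 and 411 CPM in Dm2, and 2.002 CPM in the median type (adjusted p = 4.64e-17). Both forkhead genes were thus shared with Dm8. Eip93F, an ecdysone-induced factor chosen after its values were seen, read 3876, 3284 and 3334 CPM in Dm12, against a median of 612 CPM and a highest library of 1246 CPM (log2 fold change 2.70 ± 0.10 SE, adjusted p = 3.51e-27). With tj and pros it was one of the 3 members, of 84, above all other libraries, beside 1.11% of all genes. The zinc-finger gene rn had no read in Dm12, against 5.98 CPM in the median type and 390.2 ± 33.9 CPM in Lawf1, at least 140.5-fold below the median type (adjusted p = 2.32e-08). The T-box gene bi, also called optomotor-blind, read 0.559, 0.306 and 0 CPM in Dm12 and 15.5 CPM in the median type, with 1487 ± 81.9 CPM in C2 (log2 fold change -5.62 ± 0.69 SE, adjusted p = 1.15e-08).

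Of the transmitter genes, the glutamate transporter was high in Dm12 and the acetylcholine genes ChAT and ChT were low. VGlut (FBgn0031424, chromosome 2L, 2400295 to 2410662, plus strand), the vesicular glutamate transporter, read 2566, 2743 and 2926 CPM in Dm12. Only Dm8 at 3757 ± 299 CPM and Tm5c at 2292 CPM were of that order, Tm3 followed at 131, and the median type read 6.14 CPM. Dm12 libraries lay below those of Dm8, overlapped those of Tm5c, and were called higher than the mean of all others (adjusted p = 7.29e-24). ChAT, which makes acetylcholine, read 4.63, 3.45 and 3.19 CPM in Dm12, against a median of 430.2 CPM and up to 1716 ± 80.8 CPM in Tm9 (log2 fold change -5.33 ± 0.55 SE, adjusted p = 1.92e-10). The choline transporter gene ChT read 2.20, 0.874 and 1.64 CPM in Dm12 and 90.2 CPM in the median type (log2 fold change -5.19 ± 0.61 SE, adjusted p = 4.16e-09). Tbh, the last enzyme of octopamine synthesis, read 0, 0.612 and 0.887 CPM in Dm12 and 6.88 CPM in the median type (log2 fold change -5.12 ± 0.67 SE, adjusted p = 4.53e-08). Dopa decarboxylase, Ddc, read 10.6, 14.04 and 12.7 CPM in Dm12 against 189.6 CPM in the median type (log2 fold change -3.41 ± 0.39 SE, adjusted p = 1.28e-09).

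In all, 3 of 27 transmitter genes were higher (11.1%, beside 10.6% of all genes) and 8 lower (29.6%, beside 5.22%; median log2 fold change -0.47). The other two that were higher sat at low levels. Hdc, the histamine-making enzyme, read 4.83, 1.75 and 0.222 CPM in Dm12 against 0.364 in the median type (adjusted p = 0.00443), a call that was lost without Dm12 library 1 (adjusted p = 0.17). Vmat, the vesicular monoamine transporter gene, chosen after its values were seen, read 3.04, 4.11 and 7.54 CPM in Dm12, against 2184 ± 1482 CPM in Dm2 and 1.25 CPM in the median type (adjusted p = 0.0065). Its call was lost without Dm12 library 3 (adjusted p = 0.13), and 26.2% of its exon bases lie opposite CG13330.

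Peptide precursors were mostly at low levels in Dm12, with 3 of 34 higher (8.82%, beside 10.6% of all genes) and 2 lower (5.88%, beside 5.22%; median log2 fold change -0.58). Nplp1, which encodes neuropeptide-like precursor 1, read 2700.2, 2983 and 3483 CPM in Dm12. The next type was Tm5c at 949 ± 383 CPM, the median type read 8.24 CPM, and no other library passed 1179 CPM (log2 fold change 7.53 ± 0.21 SE, adjusted p = 1.73e-29). Short neuropeptide F, sNPF, read 579, 621 and 559.9 CPM in Dm12, above the median type at 8.14 CPM (log2 fold change 4.53 ± 0.41 SE, adjusted p = 6.39e-12). Its mean was higher in Tm5ab at 2004 ± 462 CPM, T3 at 1612 ± 381 CPM and Dm2 at 920 ± 555 CPM. Sorted neurons read 757 ± 173 CPM, also above Dm12. Mip read 0, 0.262 and 0.443 CPM in Dm12, with 10 other types without a read, so its call (adjusted p = 0.00244) rests on few reads. The tachykinin gene Tk read 1.60, 0.262 and 0.754 CPM in Dm12, against 10.2 CPM in the median type and 3923 ± 797 CPM in Mi1 (log2 fold change -5.37 ± 0.78 SE, adjusted p = 5.18e-07). ITP, the ion transport peptide gene, read 2.12, 2.36 and 1.91 CPM in Dm12 and 25.04 CPM in the median type (log2 fold change -2.88 ± 0.46 SE, adjusted p = 2.18e-06).

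Octopamine, dopamine and serotonin act through G protein-coupled receptors that tune visual neurons, and in Dm12 alpha-type octopamine receptor genes were higher and beta-type ones lower. Of 17 tested, 9 (52.9%, beside 10.6% of all genes) were higher in Dm12 and 5 (29.4%, beside 5.22%) lower. All 3 beta-adrenergic-like octopamine receptor genes, which raise cyclic AMP, were near the floor. Octbeta2R (FBgn0038063, chromosome 3R, 12550625 to 12595725, minus strand) read 0, 0.131 and 0.443 CPM in Dm12. The other types read between 3.74 CPM in Lawf1 and 2854 ± 46.8 CPM in T1, with a median of 154 CPM and no library under 2.82 CPM. The groups did not overlap (log2 fold change -9.70 ± 0.36 SE, adjusted p = 4.13e-27). Octbeta3R (FBgn0250910, chromosome 3R, 12511570 to 12548229, minus strand), the neighbour of Octbeta2R, read 0.319, 0.262 and 0.310 CPM in Dm12. Elsewhere it lay between 2.92 CPM in C3 and 887 ± 171 CPM in Tm9, with a median of 134 CPM, again with no overlap (log2 fold change -8.04 ± 0.52 SE, adjusted p = 1.7e-17). Octbeta1R read 0.439, 0.612 and 0.0443 CPM in Dm12, against 67.8 CPM in the median type and 3075 ± 166 CPM in C3 (log2 fold change -7.64 ± 0.73 SE, adjusted p = 2.27e-11). Dm12 had the lowest mean of the 17 types for it, although 1 library of Tm5c had no read.

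Alpha-type octopamine receptors ran the other way. Octalpha2R read 1200.4, 1106 and 1202 CPM in Dm12. The next type, Tm2, read 548 ± 42.6 CPM, the median type 79.3 CPM, and no other library passed 589.96 CPM (log2 fold change 4.57 ± 0.14 SE, adjusted p = 3.8e-31). Oamb, the other alpha-type receptor gene, chosen after its values were seen, read 668, 746 and 832 CPM in Dm12, second to 1434 ± 73.7 CPM in Lawf1 and above a median of 103 CPM (log2 fold change 3.52 ± 0.20 SE, adjusted p = 2.7e-19). Of the dopamine receptors, Dop1R2 read 257, 264 and 295 CPM in Dm12, above every other library, with 60.1 ± 6.44 CPM in Dm8, 35.9 CPM in Tm5c and 9.28 CPM in the median type (log2 fold change 5.87 ± 0.30 SE, adjusted p = 7.19e-20). The serotonin receptor gene 5-HT1A read 412, 361 and 411 CPM in Dm12, the third of the 17 types after C2 at 1275 ± 56.8 CPM and T1 at 1069 CPM (adjusted p = 3.34e-19). The remaining receptors that were higher were Dop1R1, Dop2R, 5-HT7, 5-HT1B and 5-HT2A, and the tyramine receptor genes TyrR and TyrRII were lower; these were named after their values were seen. For 5-HT2A the call hung on few types: Dm12 read 24.96 ± 5.72 CPM, the tenth of the 17 and below the median of 28.9 CPM. It was lost without any 1 of Dm12 libraries 1 and 3 and types C2, Dm2, Lawf1, Lawf2, T1 and Tm2, where the log2 fold change lay between 0.68 and 1.01.

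**Figure D2:**
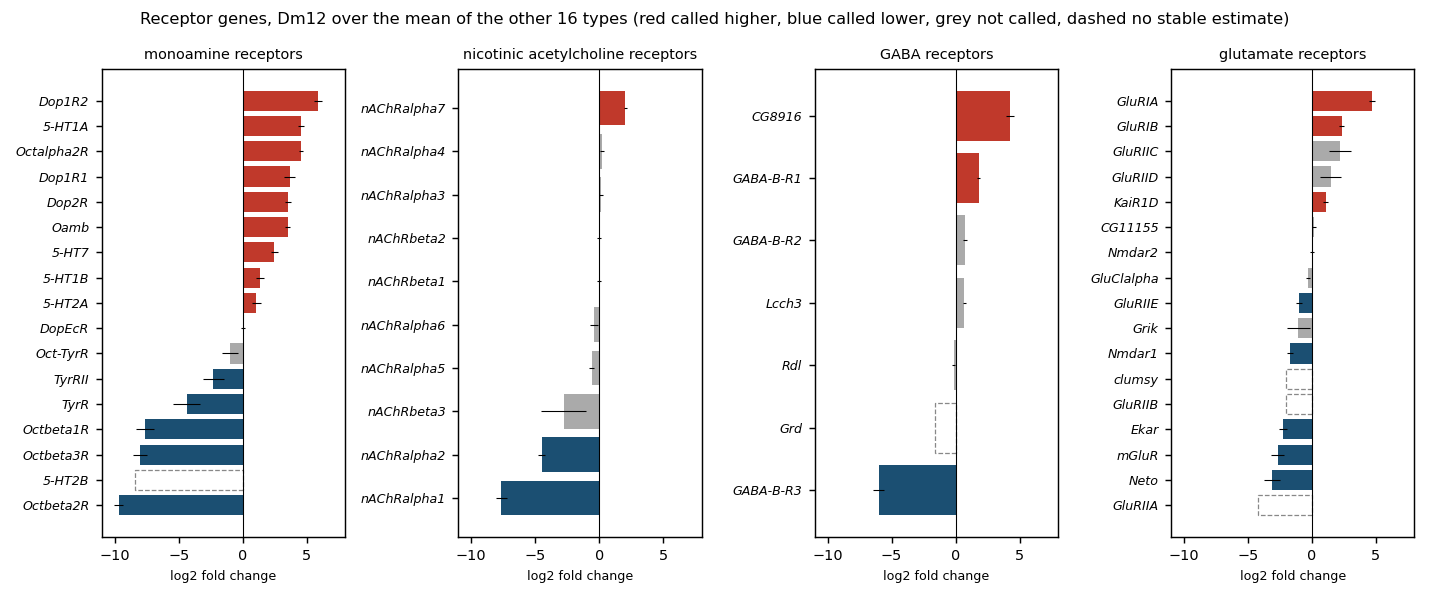
Log2 fold changes of Dm12 over the mean of the other 16 types (bars, error bars SE) for monoamine, nicotinic acetylcholine, GABA and glutamate receptor genes. Red bars were called higher, blue lower and grey not called, and dashed bars have no stable estimate because a group was at or near 0 reads. Octbeta2R, Octbeta3R and Octbeta1R lie lowest of the called monoamine receptors and Dop1R2 highest.

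Of the acetylcholine, GABA, glutamate and histamine receptor genes, Dm12 was low in nAChRalpha1 and GABA-B-R3 and high in GluRIA. It was also low in ort, as were several other types. Among 10 nicotinic receptor genes, 1 was higher and 2 were lower, 10% and 20% beside 10.6% and 5.22% of all tested genes (median log2 fold change -0.22). nAChRalpha1 read 0.0399, 1.49 and 1.24 CPM in Dm12, against 4.56 CPM in the lowest other type, T1, and a median of 236 CPM (log2 fold change -7.64 ± 0.43 SE, adjusted p = 4.76e-20). Its highest Dm12 library lay above the lowest library of T1, which read 1.46 CPM. nAChRalpha2 read 2.08, 3.32 and 3.50 CPM in Dm12 and 96.7 CPM in the median type, with T1 lower still at 1.69 CPM (log2 fold change -4.48 ± 0.27 SE, adjusted p = 2.69e-19). nAChRalpha7 was higher, at 1934, 2186 and 2114 CPM in Dm12 against a median of 496 CPM, and was exceeded by T1 at 4689 ± 77.7 CPM and Tm2 at 2884 CPM (log2 fold change 2.04 ± 0.10 SE, adjusted p = 1.18e-22). None of the 3 muscarinic receptor genes was called.

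Of 7 GABA receptor genes, 2 (28.6%, beside 10.6% of all genes) were higher and 1 (14.3%, beside 5.22%) lower (median log2 fold change 0.68). The metabotropic subunit gene GABA-B-R3 read 0.200, 1.40 and 0.754 CPM in Dm12, below every other library, with a median type of 67.7 CPM (log2 fold change -6.02 ± 0.45 SE, adjusted p = 2.36e-15). GABA-B-R1, the subunit that binds GABA, read 1113, 1061 and 1137 CPM in Dm12 and 277 CPM in the median type, ahead of 909 ± 188 CPM in T2, whose libraries overlapped (log2 fold change 1.80 ± 0.10 SE, adjusted p = 8.42e-21). CG8916, related to ionotropic GABA receptor subunits, read 519.8, 597 and 612 CPM in Dm12 and 73.9 CPM in the median type, second to Dm2 at 873 ± 99.7 CPM (log2 fold change 4.22 ± 0.31 SE, adjusted p = 1.43e-14).

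Glutamate receptor genes numbered 17, of which 3 (17.6%, beside 10.6% of all genes) were higher and 5 (29.4%, beside 5.22%) lower (median log2 fold change -1.02). The AMPA-type subunit gene GluRIA read 269.6, 359 and 368 CPM in Dm12, above all other libraries, the nearest being Mi1 at 252 ± 10.1 CPM, and 9.65 CPM in the median type (log2 fold change 4.69 ± 0.21 SE, adjusted p = 8.87e-23). Its partner GluRIB read 148, 134 and 127 CPM in Dm12 and 30.2 CPM in the median type, the fourth of the 17 types (log2 fold change 2.31 ± 0.20 SE, adjusted p = 1.64e-13). The third, named after its values were seen, was KaiR1D, a kainate-type subunit gene, at 419 ± 62.7 CPM in Dm12 and 208 CPM in the median type, with a log2 fold change that was 0.98 without T5. Neto, an auxiliary subunit, read 1.84, 2.27 and 1.24 CPM in Dm12 and 16.7 CPM in the median type (log2 fold change -3.13 ± 0.60 SE, adjusted p = 6.33e-05). The metabotropic receptor gene mGluR read 3.38 ± 0.621 CPM in Dm12 and 9.99 CPM in the median type (adjusted p = 2.39e-05). Ekar read 4.13 ± 0.661 CPM in Dm12 and 27.1 CPM in the median type (adjusted p = 8.48e-08). For the NMDA receptor subunit gene Nmdar1 the levels were 17.7 ± 3.02 CPM in Dm12 and 79.2 CPM in the median type (adjusted p = 1.93e-08). The histamine-gated chloride channel gene ort, through which photoreceptors inhibit their targets, read 0, 0.0437 and 0.355 CPM in Dm12, against 15.5 CPM in the median type and 1347 ± 399 CPM in Tm5c (log2 fold change -6.85 ± 1.17 SE, adjusted p = 1.03e-05).

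**Figure D3:**
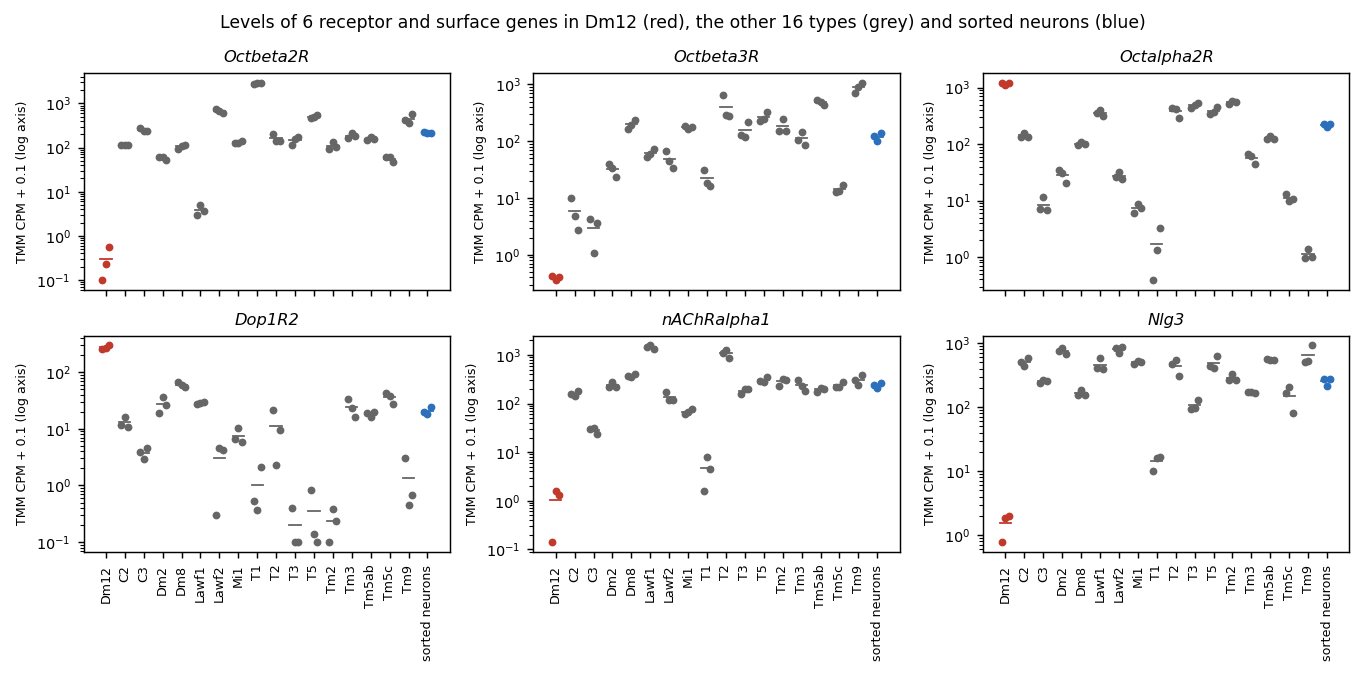
Levels of Octbeta2R, Octbeta3R, Octalpha2R, Dop1R2, nAChRalpha1 and Nlg3 in each library (points, CPM after TMM scaling plus 0.1, log axis) with group means (short lines), for Dm12 (red), the other 16 types (grey) and sorted neurons (blue). Octbeta2R, Octbeta3R and Nlg3 are below every other library in Dm12, Octalpha2R and Dop1R2 are above every other library, and nAChRalpha1 is lowest in Dm12 with T1 next.

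Of the peptide receptor genes, 12 of 44 were lower (27.3%, beside 5.22% of all genes) and 8 higher (18.2%, beside 10.6%), with a median log2 fold change of -2.12. Dh44-R1, a receptor gene for diuretic hormone 44, read 555, 669.6 and 701 CPM in Dm12. Next came T3 at 286 ± 60.6 CPM and Dm2 at 259 CPM, and the median type read 0.495 CPM. All Dm12 libraries were above all others, 2.25 times the level of T3 (adjusted p = 1.51e-20). Both myosuppressin receptor genes were also higher. MsR1 read 286, 338 and 324 CPM in Dm12, against 250.5 ± 63.6 CPM in Tm5c, whose libraries overlapped, and 8.45 CPM in the median type (log2 fold change 5.46 ± 0.26 SE, adjusted p = 1.43e-21). MsR2 read 131, 118 and 122 CPM in Dm12, above every other library, with 61.6 ± 6.82 CPM in Tm3 (log2 fold change 4.94 ± 0.31 SE, adjusted p = 1.8e-17). The short neuropeptide F receptor gene sNPF-R had no read in Dm12, where its ligand gene sNPF was called higher, against 19.1 CPM in the median type and 215 ± 32.7 CPM in Mi1. Dm12 was at least 448-fold lower than the median type (adjusted p = 7.42e-12), while Dm8 was close at 0.207 CPM. CG12290 had no read in Dm12 either, against 2.45 CPM in the median type, at least 57.5-fold lower (adjusted p = 6.17e-05). TrissinR, the receptor gene for trissin, read 0, 0.525 and 0 CPM in Dm12 and 7.50 CPM in the median type (log2 fold change -5.16 ± 1.13 SE, adjusted p = 0.000338).

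Surface proteins that pair neurons with their partners differed widely. In the Dpr and DIP family, whose immunoglobulin proteins bind each other across cells, 9 of 32 were higher (28.1%, beside 10.6% of all genes) and 6 lower (18.8%, beside 5.22%; median log2 fold change 0.16). DIP-alpha (FBgn0052791, chromosome X, 3507245 to 3571649, minus strand) read 863, 848 and 1029 CPM in Dm12. Lawf1 came next at 230.4 ± 21.996 CPM, T2 read 32.7 CPM and the median type 4.0005 CPM, so that Dm12 lay above every other library (log2 fold change 7.50 ± 0.19 SE, adjusted p = 3.69e-32). Of its binding partners, chosen here for that binding, dpr6 read 106 ± 19.3 CPM in Dm12 and 151 CPM in the median type and was not called. The other, dpr10, read 107, 155 and 163 CPM in Dm12 and 86.8 CPM in the median type, and its log2 fold change was 1.01 ± 0.23 (SE, adjusted p = 0.000393). That fold lay under 1 without any 1 of Dm12 libraries 2 and 3 and types C3, Dm2, Mi1, T1 and Tm5c, down to 0.78 without T1. dpr20, chosen after its values were seen, read 1216, 1572 and 1559 CPM in Dm12, above all others, with 609 ± 197 CPM in Tm2 (log2 fold change 4.38 ± 0.16 SE, adjusted p = 1.51e-26). DIP-beta had no read in Dm12, against 1428 ± 109 CPM in Lawf2 and 1.96 CPM in the median type, at least 46.1-fold below the median type (adjusted p = 0.031). dpr2 read 0, 0 and 0.355 CPM in Dm12 and 21.4 CPM in the median type (log2 fold change -6.75 ± 1.06 SE, adjusted p = 2.02e-06). For dpr13 the levels were 0.776 ± 0.334 CPM in Dm12 and 43.7 CPM in the median type (adjusted p = 1.6e-11), and for dpr1 1.504 ± 1.10 CPM in Dm12 and 56.3 CPM in the median type (adjusted p = 4.52e-11). DIP-lambda read 0, 1.22 and 2.44 CPM in Dm12 (adjusted p = 1.48e-05), and DESeq2 did not call it (adjusted p = 0.149).

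Beat and Side proteins, a second family of paired surface ligands and receptors, had 10 of 21 members higher (47.6%, beside 10.6% of all genes) and 2 lower (9.52%, beside 5.22%; median log2 fold change 0.93). None stood above or below all other libraries. The gene beat-IV read 151, 130.4 and 134 CPM in Dm12 and 10.49 CPM in the median type, the third of the 17 types (adjusted p = 5.4e-11). side-II read 869.8, 785 and 890.2 CPM in Dm12 and 202 CPM in the median type, also the third (log2 fold change 2.94 ± 0.16 SE, adjusted p = 1.13e-20). beat-VII read 342 ± 14.7 CPM in Dm12 and 119.96 CPM in the median type, side-VIII 409.9 ± 25.3 CPM in Dm12 and 112 CPM in the median type, and both were called. beat-Ib was called at 49.5 ± 8.83 CPM in Dm12 against 2.01 CPM in the median type, while T2 and T3 held 1652 and 1186 CPM. beat-IIIc was lower, at 1.84, 0.437 and 0.665 CPM in Dm12 and 10.6 CPM in the median type (log2 fold change -4.06 ± 0.69 SE, adjusted p = 1.01e-05).

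Among 88 other adhesion and guidance genes, 25 (28.4%, beside 10.6% of all genes) were higher and 11 (12.5%, beside 5.22%) lower (median log2 fold change 0.24). Nlg3 (FBgn0083963, chromosome 3R, 7570281 to 7639434, minus strand), a neuroligin gene of the postsynaptic membrane, read 0.679, 1.79 and 1.91 CPM in Dm12. Every other type read at least 14.2 CPM, in T1, with a median of 450.01 CPM, and the lowest other library held 10.1 CPM. The groups did not overlap (log2 fold change -7.64 ± 0.35 SE, adjusted p = 1.05e-23). A second neuroligin gene, Nlg1, was higher at a low level, 3.04, 4.11 and 4.21 CPM in Dm12 against at most 1.13 ± 0.527 CPM in Tm5ab (adjusted p = 2.17e-08). Ten-m, a teneurin that matches synaptic partners in the fly's olfactory system, read 1647, 1488 and 1655 CPM in Dm12, above every other library, with 526 ± 128 CPM in Dm2 and 136 CPM in the median type (log2 fold change 4.13 ± 0.13 SE, adjusted p = 8.28e-31). NetB, a Netrin guidance cue gene, read 615, 691 and 781 CPM in Dm12, second to T1 at 1199 ± 184 CPM and above a median of 42.997 CPM (log2 fold change 4.25 ± 0.26 SE, adjusted p = 1.51e-17). Neurotactin, Nrt, chosen after its values were seen, read 894, 913 and 1059.97 CPM in Dm12, with 443 ± 54.98 CPM in T1, and 21.8% of its exon bases lie opposite mus302 (log2 fold change 3.78 ± 0.18 SE, adjusted p = 7.7e-23). The gene fred, which encodes an immunoglobulin protein, read 1.40, 1.44 and 1.42 CPM in Dm12 and 95.98 CPM in the median type (log2 fold change -4.88 ± 0.57 SE, adjusted p = 3.61e-09). The cadherin gene Cad87A read 0.0399, 0.0874 and 0.754 CPM in Dm12 and 6.535 CPM in the median type (log2 fold change -4.15 ± 0.62 SE, adjusted p = 4.37e-07).

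Ion channels set how a neuron turns input into release. Dm12 was lower than the mean of the other types in the T-type calcium channel gene and in Shawl, which several other types also lacked. Among 23 potassium channel genes 2 were higher (8.7%, beside 10.6% of all genes) and 4 lower (17.4%, beside 5.22%; median log2 fold change 0.09). Shawl, a Shaw-type channel gene, read 0.120, 0.262 and 0.976 CPM in Dm12 and 11.8 CPM in the median type (log2 fold change -4.52 ± 0.56 SE, adjusted p = 8.53e-09). C3 at 0.258 CPM and Tm2 at 0.368 CPM had lower means than Dm12. C2 at 0.564 CPM and T3 at 0.759 CPM were near it, while T5 read 317 ± 26.6 CPM. The A-type channel gene Sh read 2140.2, 1869.8 and 1909 CPM in Dm12, the lowest mean of the 17 types, against 4568 CPM in the median type (log2 fold change -1.28 ± 0.14 SE, adjusted p = 1.91e-10). SK, a calcium-activated channel gene, read 812, 946 and 860.4 CPM in Dm12 and 414 CPM in the median type (log2 fold change 1.38 ± 0.11 SE, adjusted p = 1.19e-14). KCNQ was called higher at 61.6 ± 5.78 CPM in Dm12 against 15.5 CPM in the median type, but Tm2 read 1642 ± 305 CPM, Dm12 was the fifth of the 17, and the log2 fold change was -1.10 with the type as the unit. Of its exon bases, 27.4% lie opposite asRNA:CR45133. Elk (4.28 ± 1.88 CPM in Dm12, 11.9 CPM in the median type) and eag (60.1 ± 1.56 CPM in Dm12, 424 CPM in the median type) were called lower. Elk lost its call without Dm12 library 2 or 3, Lawf2 or Tm3, and eag without any 1 Dm12 library and without any 1 of C2, Dm2, Lawf1, Lawf2, T2, T3, T5 and Tm5c.

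Of 21 calcium, sodium, leak and chloride channel genes, 3 were higher (14.3%, beside 10.6%) and 2 lower (9.52%, beside 5.22%; median log2 fold change 0.31). Ca-alpha1T, the T-type calcium channel gene, read 32.9, 18.98 and 17.7 CPM in Dm12, against 1492 CPM in the median type and 9234 ± 1061 CPM in T2 (log2 fold change -5.25 ± 0.47 SE, adjusted p = 3.78e-12). Tm9 was the only type below Dm12, at 12.97 CPM. The chloride channel gene SecCl was low in Dm12 at 1.06 ± 0.730 CPM, against 11.5 CPM in the median type (adjusted p = 3.29e-05). Best1, a bestrophin chloride channel gene, read 58.7, 76.6 and 78.98 CPM in Dm12 and 11.5 CPM in the median type (log2 fold change 3.14 ± 0.38 SE, adjusted p = 9.93e-09). NaCP60E read 3438, 3423 and 3542 CPM in Dm12 and 1603 CPM in the median type, a fold that was 0.78 on the log2 scale without T1. Teh3, a sodium channel auxiliary subunit gene, read 512 ± 110.3 CPM in Dm12 and 359 CPM in the median type, a fold that was 0.81 on the log2 scale without T2.

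Of the release machinery, brp, Syn, Rop and cpx were higher in Dm12 and Fife and Rph lower. In the active zone list 1 of 11 was higher and 2 lower, and in the vesicle fusion list 3 of 16 were higher and 0 lower (median log2 fold changes 0.33 and 0.45), which is 9.09% and 18.8% higher beside 10.6% of all tested genes, and 18.2% and 0% lower beside 5.22%. The scaffold gene brp read 3830.5, 3600.5 and 4092 CPM in Dm12 and 2164 CPM in the median type (log2 fold change 1.30 ± 0.14 SE), 0.87 without T1. Rph read 17.8 ± 3.36 CPM in Dm12 and 58.2 CPM in the median type, and was lower (adjusted p = 7.97e-09). Fife, an active zone gene, read 128 ± 11.4 CPM in Dm12 and 537 CPM in the median type, and it lost its call, the size of its log2 fold change being as low as -0.86, without any 1 of C2, C3, Dm2, Mi1, T2, T3, T5, Tm5c and Tm9. Synapsin, Syn, read 1786, 1926 and 2277 CPM in Dm12 and 618 CPM in the median type (log2 fold change 1.65 ± 0.12 SE, adjusted p = 3.56e-16). Rop (1082 ± 204 CPM in Dm12, 489.9 CPM in the median type) and cpx (9568 ± 782 CPM in Dm12, 4727 CPM in the median type) were also higher, cpx with a fold of 0.99 without T1. Of 7 innexin gap junction genes, shakB alone was called, and it was higher (14.3%, beside 10.6% of all genes). It read 649.8, 613 and 626 CPM in Dm12 and 334 CPM in the median type (log2 fold change 1.81 ± 0.22 SE, adjusted p = 9.13e-09).

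The leading genes not yet described complete the named set. Among those above every other library was kairos, at 1106, 1164 and 1281 CPM in Dm12 and 102 ± 99.2 CPM in T2 (log2 fold change 7.42 ± 0.35 SE, adjusted p = 7.74e-21). CG31183 read 197, 209 and 225 CPM in Dm12 and at most 20.9 ± 0.940 CPM in Dm8 (log2 fold change 6.76 ± 0.20 SE, adjusted p = 3.8e-31), and it was one of the 3 also called with type as the unit (adjusted p = 0.0111). CG15478 read 190.2, 176 and 157 CPM in Dm12 and 83.7 ± 22.1 CPM in Tm5c, 2.08 times lower than Dm12. CG7720 read 22.1, 33.4 and 35.03 CPM in Dm12 and 4.91 ± 1.16 CPM in Tm2. CG11438 read 126, 104 and 114 CPM in Dm12 and 39.6 ± 12.6 CPM in Dm2. The factor gene apt read 63.4, 58.6 and 52.4 CPM in Dm12 and 14.1 ± 3.36 CPM in Lawf1. cv-2, a gene for a BMP-binding protein, read 101, 84.04 and 80.9 CPM in Dm12 and 22.8 ± 7.59 CPM in Tm5ab. Pura read 98.96, 86.2 and 95.7 CPM in Dm12 and 55.2 ± 10.997 CPM in C2. PVRAP read 286, 251 and 291 CPM in Dm12 and 187 ± 1.85 CPM in Mi1, asRNA:CR45137 59.6 ± 13.5 CPM in Dm12 and 35.2 ± 4.97 CPM in Tm5c, and CG43428 20.4 ± 2.97 CPM in Dm12 and 9.19 ± 1.36 CPM in Tm5c. The rule that named the genes of this paragraph required Dm12 libraries above those of every other type. For the 8 from CG7720 to CG43428 the ratios to the next type ran from 1.48 for PVRAP to 6.15 for CG7720.

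On the lower side, CG33543 read 0, 0 and 1.02 CPM in Dm12 and 198 CPM in the median type (log2 fold change -8.76 ± 0.47 SE, adjusted p = 9.62e-21). The immunoglobulin gene fipi, named for its part in courtship song, read 0, 0.481 and 0.665 CPM in Dm12 and 143 CPM in the median type (log2 fold change -8.70 ± 0.43 SE, adjusted p = 1.57e-22). Pvf3, a PDGF- and VEGF-related ligand gene, read 1.28, 1.66 and 2.04 CPM in Dm12 and 326 CPM in the median type (log2 fold change -7.03 ± 0.32 SE, adjusted p = 1.14e-23). By the rule that named these 3 genes, no Dm12 library reached the lowest library of another type, which held 6.41, 4.74 and 7.28 CPM. CG42541 read 5.47 ± 0.521 CPM in Dm12 and 919 CPM in the median type, with 19098 ± 5423 CPM in T2. CG31221 read 10.52 ± 1.11 CPM in Dm12 and 1000.1 CPM in the median type. Stacl, a channel regulator gene, read 9.77 ± 2.29 CPM in Dm12 and 627 CPM in the median type. Frq2, a frequenin calcium sensor gene, read 0.715 ± 0.257 CPM in Dm12 and 44.8 CPM in the median type, and MYPT-75D, a myosin phosphatase subunit gene, 0.810 ± 0.471 CPM in Dm12 and 40.4 CPM in the median type. These 5 were also below every other library, as the same rule required. Their log2 fold changes ran from -7.32 ± 0.33 (SE) for CG42541 to -5.56 ± 0.53 for Frq2.

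**Figure D4:**
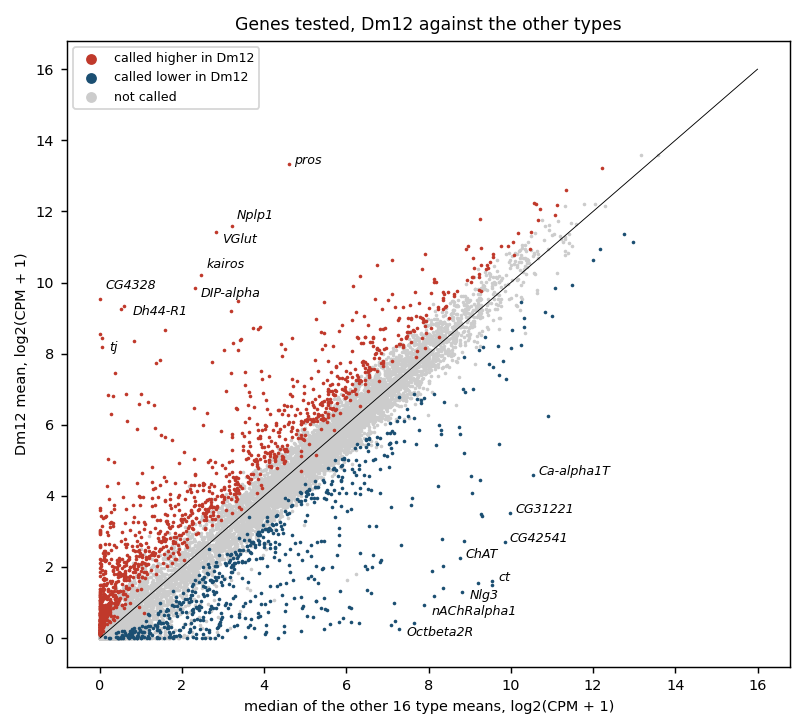
Mean level in Dm12 (y axis) against the median of the other 16 type means (x axis) for the 12569 tested genes, both as log2(CPM + 1), with genes called higher in red, lower in blue and not called in grey, and the line of equal level. The labelled genes pros, Nplp1, VGlut, kairos, DIP-alpha, CG4328, Dh44-R1 and tj lie far above the line, and Ca-alpha1T, CG31221, CG42541, ChAT, ct, Nlg3, nAChRalpha1 and Octbeta2R far below it.

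Among lists that bear on cell state, futsch, mam and mav were below every other library in Dm12. Pan-neuronal genes had 2 higher (12.5%, beside 10.6% of all genes) and 1 lower (6.25%, beside 5.22%) of 16. The lower one was futsch, a microtubule-associated protein gene, at 210.1, 125 and 132 CPM in Dm12, below every other library, and 948 CPM in the median type (log2 fold change -2.72 ± 0.27 SE, adjusted p = 8.36e-12). Activity-regulated genes had 3 lower of 9 (33.3%, beside 5.22% of all genes): sr read 11.9 ± 4.51 CPM in Dm12 and 134 CPM in the median type, Hr38 219 ± 9.03 CPM in Dm12 and 900.4 CPM in the median type, and cbt 44.03 ± 7.66 CPM in Dm12 and 133 CPM in the median type. None of these 3 was outside the range of the other libraries. Of 10 clock genes 3 were lower (tim, per and cwo, 30% beside 5.22% of all genes) and 1 higher (vri, 10% beside 10.6%). The gene per read 5.66 ± 2.28 CPM in Dm12 and 40.4 CPM in the median type (adjusted p = 0.000169), and tim, at 0.263 ± 0.349 CPM in Dm12, lost its call without Dm12 library 1 or 2, T1, Lawf1 or Lawf2.

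In the Notch list 4 of 12 were lower (33.3%, beside 5.22% of all genes) and 0 higher (beside 10.6%; median log2 fold change -2.31). The coactivator gene mam read 1.52, 3.19 and 3.77 CPM in Dm12, below every other library, against 90.01 CPM in the median type (log2 fold change -5.15 ± 0.30 SE, adjusted p = 1.6e-19). The receptor gene N read 0, 0.175 and 0.177 CPM in Dm12 and 2.19 CPM in the median type (adjusted p = 0.000183), and the target gene Hey 2.28, 4.94 and 4.61 CPM in Dm12 and 34.2 CPM in the median type (adjusted p = 2.08e-07). The antagonist gene H read 42.9 ± 8.77 CPM in Dm12 and 90.4 CPM in the median type, with a fold of -0.98 on the log2 scale without Dm12 library 1. Of 23 Wnt, Hedgehog and TGF-beta genes, 2 were lower (8.7%, beside 5.22% of all genes) and 0 higher (beside 10.6%). The lower ones were mav and fz. The TGF-beta ligand gene mav read 0.958, 0.743 and 1.51 CPM in Dm12, below every other library. The median type read 37.1 CPM for mav (log2 fold change -4.78 ± 0.33 SE, adjusted p = 4.15e-17). The Wnt receptor gene fz read 4.82 ± 2.33 CPM in Dm12 and 18.1 CPM in the median type.

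The list with the largest share of lower genes was the mitochondrially encoded one, with 16 of 18 lower (88.9%, beside 5.22% of all genes, median log2 fold change -1.90). These transcripts made up 0.444 to 0.705% of reads in genes in the Dm12 libraries, against up to 7.21% in T1. Libraries of Dm2, Dm8, T3, Tm2 and Tm3 overlapped that range, at 0.429% upward, so a low share was common to several types. The list with heat-shock genes had 2 of 18 higher (11.1%, beside 10.6% of all genes) and 1 lower (5.56%, beside 5.22%). The whole list summed to 5070 to 7816 CPM in the Dm12 libraries. Its mean of 6563 CPM ranked 2 of the 17 types, against 6652 CPM in C3 and 4677 CPM in the median type. The cause was not tested. Its member Hsp68 read 113, 196 and 359 CPM in Dm12 and 45.8 CPM in the median type (adjusted p = 9.42e-05). The 83 nuclear respiratory chain genes had 4 higher (4.82%) and 3 lower (3.61%), both under the shares of all genes. The 83 cytosolic ribosomal protein genes had 3 higher (3.61%) and 0 lower, also under those shares, and the 70 mitochondrial ribosomal protein genes none in either direction.

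For summed markers of other cells Dm12 ranked from 13 to 17 among the 17 types, 17 being the lowest. It was lowest for photoreceptors and other optic lobe types, and ranked 13 for glia, fat body and muscle. The 16 tested glial marker genes had 1 higher (6.25%, beside 10.6% of all genes) and 4 lower (25%, beside 5.22%). The whole list summed to 227 to 262 CPM in the Dm12 libraries, against 144 to 37614 CPM in other libraries. The median type summed to 325 CPM, and T1 was the highest type. The defining glial gene repo read 1.77 ± 0.249 CPM in Dm12 and 2.76 CPM in the median type, alrm 2.78 ± 1.53 CPM in Dm12 and 5.67 CPM in the median type, neither called, and Mdr65 had no read in Dm12. The glial member called higher is a different gene and is not described here. The photoreceptor list had 2 higher and 4 lower of 19 and summed to 657 to 718 CPM in Dm12, less than the lowest other library at 800.3 CPM. Hemocyte markers had 3 lower of 8 (37.5%) and trachea markers 3 lower of 5 (60%), beside 5.22% of all genes. Fat body markers had none called of 6, and muscle markers 1 higher of 12 (8.33%, beside 10.6%). Markers of other optic lobe types summed to 15.8 to 30.4 CPM in Dm12, the lowest mean of the 17 types. Of these 14 markers 2 were higher (14.3%, beside 10.6% of all genes) and 4 lower (28.6%, beside 5.22%), and none reached 20 CPM in Dm12. Of the 4 immune peptide genes tested, 2 were above all other libraries, beside 1.11% of all genes. They were AttC (2.64, 6.08 and 5.94 CPM in Dm12, at most 0.293 CPM elsewhere) and CecC (0.599, 1.22 and 1.46 CPM in Dm12, at most 0.144 CPM elsewhere). Their part in other results was not tested.

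Dm8 and Tm5c were the only other types with VGlut at a comparable level. They were chosen for that level in these data, and a second comparison set Dm12 against the mean of those types. Its result for VGlut itself was therefore largely fixed by the choice. Dm8 is a wide-field amacrine neuron that receives ultraviolet photoreceptor input, and Tm5c is a projection neuron of the colour pathways. Of 12569 genes, 689 (5.48%) were called higher in Dm12 and 1018 (8.1%) lower, with a median log2 fold change of -0.10 over all tested genes. This comparison and the one above share the Dm12, Dm8 and Tm5c libraries. VGlut itself was not called: the log2 fold change was -0.10 ± 0.55 (SE, adjusted p = 1), with 2745 ± 180.2 CPM in Dm12, 3757 ± 299 CPM in Dm8 and 2292 ± 599 CPM in Tm5c.

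CG4328 and Lmx1a separated Dm12 from both, at 735 ± 66.1 and 372 ± 19.1 CPM in Dm12, against no read for either in Dm8 and 0.0161 ± 0.0278 and 0.0482 ± 0.0834 CPM in Tm5c (adjusted p = 5.27e-14 and 3.06e-16). The gene oc read 345 ± 41.8 CPM in Dm12, against no read in Dm8 and 0.0321 ± 0.0556 CPM in Tm5c (adjusted p = 4.42e-14). hbn read 110.4 ± 8.84 CPM in Dm12, 0.0188 ± 0.0326 CPM in Dm8 and 0.260 ± 0.293 CPM in Tm5c (adjusted p = 5.96e-17), and dve 32.02 ± 3.09 CPM in Dm12, 0.146 ± 0.217 CPM in Dm8 and no read in Tm5c (adjusted p = 1.64e-06). With twz, at 224 ± 28.5 CPM in Dm12, 0.322 ± 0.407 CPM in Dm8 and 0.257 ± 0.445 CPM in Tm5c (adjusted p = 3.84e-16), Dh44-R1 at 8.45 ± 1.88 CPM in Dm8 and 0.115 ± 0.154 CPM in Tm5c, and CG7720 without a read in Dm8 and at 0.813 ± 1.41 CPM in Tm5c, these are the genes furthest above both types. In each of the 8, no Dm12 library overlapped a library of Dm8 or Tm5c, as the rule that named them required. The 8 genes furthest below both types were named by the same rule.

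On the other side, pyr, an FGF ligand gene, had no read in Dm12, against 232 ± 34.5 CPM in Dm8 and 9.26 ± 6.27 CPM in Tm5c (adjusted p = 6.83e-11). The histamine channel gene ort read 0.133 ± 0.193 CPM in Dm12, 686 ± 79.2 CPM in Dm8 and 1347 ± 399 CPM in Tm5c, and the log2 fold change was -12.81 ± 1.35 (SE, adjusted p = 6.47e-10). Both of those types therefore had ort far above Dm12, with no overlap of libraries. The neuropeptide F receptor gene NPFR had no read in Dm12, against 3.53 ± 2.24 CPM in Dm8 and 102 ± 53.03 CPM in Tm5c (adjusted p = 5.39e-09). tup, a LIM homeodomain gene also called islet, had no read in Dm12, against 0.451 ± 0.297 CPM in Dm8 and 461 ± 51.3 CPM in Tm5c (adjusted p = 1.15e-05), so this call came from Tm5c, and against Dm8 alone the adjusted p was 0.112. CG42326 (4.63 ± 1.82 CPM in Dm8, 89.5 ± 54.5 CPM in Tm5c), CG8180 (2.66 ± 3.51 CPM in Dm8, 52.1 ± 13.7 CPM in Tm5c) and Fmo-1, a flavin monooxygenase gene (1.27 ± 0.809 CPM in Dm8, 59.2 ± 14.6 CPM in Tm5c), also had no read in Dm12. CG18853 had 1 read over the 3 Dm12 libraries, against 32.6 ± 1.75 CPM in Dm8 and 43.2 ± 6.42 CPM in Tm5c (adjusted p = 2.63e-15).

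**Figure D5:**
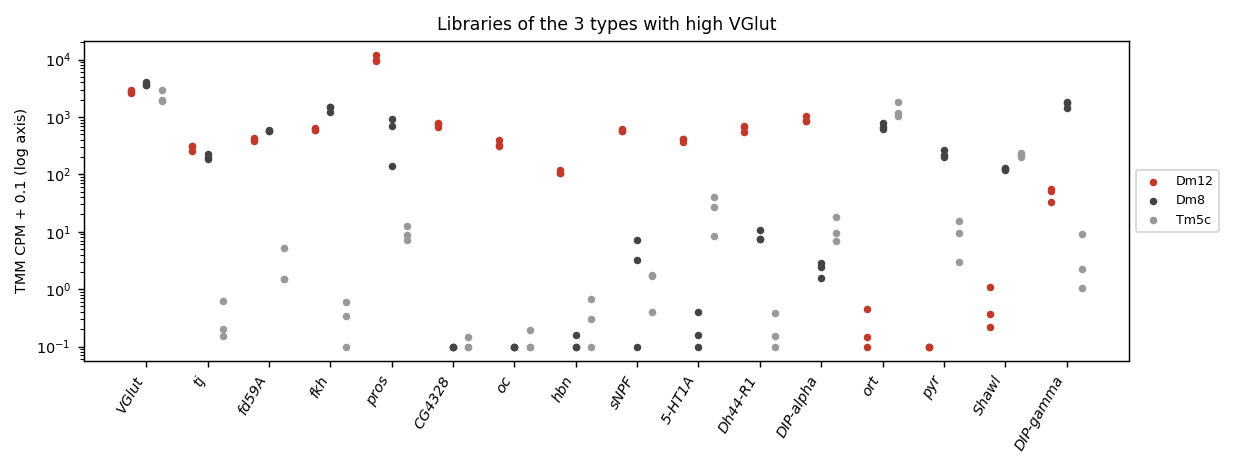
Levels of 16 genes in each library (points, CPM after TMM scaling plus 0.1, log axis) of Dm12 (red), Dm8 (dark grey) and Tm5c (light grey), the 3 types with high VGlut. Dm12 shares tj, fd59A and fkh with Dm8 and not with Tm5c, stands alone for CG4328, oc, hbn, sNPF, Dh44-R1 and DIP-alpha, and lacks ort, pyr and Shawl, which Dm8 and Tm5c have.

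Dm12 and Dm8 shared part of their factor set, seen in genes chosen after their values were known, as were those of the next paragraph. The levels of tj were 289.7 ± 32.1 CPM in Dm12, 203 ± 18.1 CPM in Dm8 and 0.229 ± 0.262 CPM in Tm5c, those of fd59A 408 ± 22.3 CPM in Dm12, 574 ± 15.7 CPM in Dm8 and 2.65 ± 2.13 CPM in Tm5c, and those of fkh 608 ± 31.3 CPM in Dm12, 1399 ± 165 CPM in Dm8 and 0.250 ± 0.254 CPM in Tm5c. Against Dm8 alone none of the 3 passed the test: the log2 fold change was 0.51 for tj (adjusted p = 0.711), -0.49 for fd59A (adjusted p = 0.789) and -1.20 for fkh (adjusted p = 0.269). A missing call does not show equal levels, since the Dm12 and Dm8 libraries did not overlap for tj or fd59A. The fd59A libraries read at most 424 CPM in Dm12 and at least 562 CPM in Dm8. The gene pros read 10333 ± 1354 CPM in Dm12, 575 ± 394 CPM in Dm8, where 1 library held 139 CPM and the other two 683 and 904 CPM, and 9.40 ± 2.69 CPM in Tm5c (log2 fold change 7.14 ± 0.56 SE, adjusted p = 2.12e-13). ct, by contrast, was low in both Dm12 and Dm8, at 1.83 ± 0.789 and 0.746 ± 0.985 CPM, and read 1174 ± 249.8 CPM in Tm5c. Against Dm8 alone ct was called higher in Dm12 (log2 fold change 1.40, adjusted p = 0.0244), and against the mean of both types lower (log2 fold change -3.96 ± 0.38 SE, adjusted p = 1.32e-11).

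Receptors divided the 3 types further. 5-HT1A read 394 ± 29.3 CPM in Dm12, 0.120 ± 0.162 CPM in Dm8 and 25.3 ± 16.2 CPM in Tm5c (log2 fold change 7.75 ± 0.46 SE, adjusted p = 2.77e-17). sNPF, a peptide gene, read 586 ± 31.3 CPM in Dm12, 3.37 ± 3.48 CPM in Dm8 and 1.18 ± 0.757 CPM in Tm5c (log2 fold change 8.14 ± 0.86 SE, adjusted p = 7.41e-10). The GABA-gated chloride channel gene Rdl read 2209.7 ± 69.7 CPM in Dm12, 83.5 ± 2.64 CPM in Dm8 and 2629.9 ± 291 CPM in Tm5c, so Dm12 resembled Tm5c in it, with a log2 fold change of -0.25 against Tm5c alone (adjusted p = 0.354). GluClalpha followed the same order, at 396 ± 26.1 CPM in Dm12, 50.99 ± 3.74 CPM in Dm8 and 501 ± 117 CPM in Tm5c. Octbeta1R read 0.365 ± 0.291 CPM in Dm12, 999.962 ± 175 CPM in Dm8 and 1.88 ± 2.47 CPM in Tm5c, and Octbeta2R 0.192 ± 0.228 CPM in Dm12, 106 ± 11.9 CPM in Dm8 and 56.4 ± 7.37 CPM in Tm5c. The second was called against both types together (log2 fold change -8.66 ± 0.36 SE, adjusted p = 2.97e-24), while for Octbeta1R the adjusted p against Tm5c alone was 0.051. Shawl read 0.453 ± 0.459 CPM in Dm12, 125 ± 4.92 CPM in Dm8 and 219 ± 18.7 CPM in Tm5c, with no overlap (log2 fold change -8.52 ± 0.66 SE, adjusted p = 3.36e-14). DIP-gamma, a further surface protein gene, read 46.7 ± 12.7 CPM in Dm12, 1678 ± 191 CPM in Dm8 and 3.98 ± 4.26 CPM in Tm5c, between the others, and was not called against their mean.

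Across all 12569 tested genes, the mean log2 profile of Dm12 was most like those of Dm8 (r = 0.940), Tm3 (r = 0.936) and Dm2 (r = 0.930), and least like that of T2 (r = 0.770). Over the 500 genes that varied most between types, Tm3 (r = 0.398) came before Dm8 (r = 0.392). Both are correlations over genes of 1 mean profile per type, so they describe the profiles and carry no p.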

How the data were processed

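RNA of 17 single optic lobe cell types, of sorted neurons and of a T1 and Tm1 mixture was sequenced as paired ends from SMART-Seq v4 and Nextera XT libraries, 3 libraries per group, per the labels' protocols. The authors deposited raw counts per gene, for 17558 gene identifiers. The submitters' processing notes name Trimmomatic 0.32, STAR 2.5.2, HTSeq 0.6.1 and the build BDGP6, and whether counting used strand is not given in the sources used here. These kits do not mark strand, so reads where genes overlap on opposite strands cannot be assigned by strand. Reads counted to no feature (47.9 to 48.1% in Dm12) or as ambiguous (1.29 to 1.32%) were left out of library sizes. Whether the no-feature reads lay outside annotated exons cannot be told without knowing how strand was counted. Symbols, coordinates and overlaps came from Ensembl release 115, which matched 17252 identifiers.

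One edgeR 4.0.16 fit (robust quasi-likelihood, TMM scaling, filterByExpr) with a coefficient for each group covered all 57 libraries and 12569 genes, in R 4.3.3. Its contrasts were Dm12 minus the mean of the other 16 types and Dm12 minus the mean of Dm8 and Tm5c, with Benjamini-Hochberg adjustment over all genes. SEs are the log2 fold change divided by the square root of F. A floor of 3 counts over the Dm12 libraries stands for 0.0426 CPM, and it covers counting error only. On simulated counts for the first contrast, with 200 changed genes among 12569, the test called 91 of 100 genes changed by 1.5 and 100 of 100 changed by 3 on the log2 scale, with 7 false calls. Those counts had the same mean in all groups apart from the changes, a single dispersion for all genes, and changes only in well-read genes. Types differ widely in the real data, so these figures check the code and do not give the error rate of the calls.

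Named genes are the 4 markers; the 20 genes furthest above and the 12 furthest below, with at least 20 CPM in the higher side and no overlap with any other library; up to 6 called members of each list; and 8 genes each way against Dm8 and Tm5c. Members, lists and rules were chosen with earlier results of these data known. Alternatives were DESeq2 1.42.0, its size factors, no filter, a test against a fold threshold, a block on library number, the type as the unit, subsets of the libraries, and leaving out each Dm12, Dm8 or Tm5c library and each type. Fits that left libraries out kept the tested genes and the trended dispersion. Library numbers did not pair the samples. No sequences are printed, since no sequence table was given. The 30 list entries without a matching identifier, among them VAChT, ap and para, were not analysed here.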

Additional observations from a re-analysis of the deposited data

How the results depend on the processing

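Against the mean of the other 16 types, with 1337 genes called higher and 656 lower, edgeR with median-ratio size factors gave 1351 and 647, no filter 1594 and 600, and the libraries of single types only 1337 and 634. DESeq2 gave 974 higher and 1115 lower. A test against a log2 fold change of 1 gave 676 higher and 319 lower. With the type as the unit, where the fold is set against the mean level of the types and the spread between types is the error, edgeR called 5 higher and 0 lower (111 lower at an unadjusted p under 0.05). Without each Dm12 library in turn, 1112 to 1167 were higher and 568 to 587 lower; 155 to 216 genes lay above all 48 other libraries (140 with all 3), and 43 to 55 below (38 with all 3), the bar being lower with 2 libraries. The 216 came without Dm12 library 1. Without each other type in turn, 1240 to 1435 were higher and 610 to 722 lower, and without T2 60 genes lay below all others.

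Against the mean of Dm8 and Tm5c, with 689 higher and 1018 lower, the test against a log2 fold change of 1 gave 316 and 553, Tm5c alone 899 and 1900, and the type as the unit in edgeR 0 and 0 (404 at an unadjusted p under 0.05). Without each Dm12, Dm8 or Tm5c library in turn, 589 to 698 were higher and 761 to 1015 lower. The other alternatives run, Dm8 alone among them (494 and 762), kept both counts within 1.5 times. The library number as a block gave 1323 higher and 643 lower in the first comparison and 697 and 999 in the second. Same-numbered libraries did not deviate together (0 of 48 pairs over 0.1, median correlation 0.00295), so the numbers are only names. The block changed the call of none of the 191 results on named genes.

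Of those 191 results, the fold threshold test ended 24 calls and the type as the unit 171, which also turned the direction of 7: hbn (-1.47), beat-Ib (-2.11), KCNQ (-1.10), 5-HT2A (-0.62), Vmat (-4.77) and DIP-gamma (-1.40) against the 16 types, and fkh (-0.16) against Dm8 and Tm5c. Against Dm8 alone, fkh (-1.20), ct (1.40), fd59A (-0.49) and dpr10 (-0.51) turned direction, and against Tm5c alone Rdl (-0.25) and GluClalpha (-0.34). The cause of each was not tested. DESeq2 ended 2 calls and added 5.

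With 1 deposited sample per type, the tests describe these libraries, and differences between types cannot be told apart from differences between sorts. Depth was high enough in Dm12 (22.2 to 23.2 M reads) that 0 reads allows at most 0.0426 CPM, whereas the shallowest other library held 0.602 M reads.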
